A study of Mus musculus with 5 samples.

Results

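Secreted factors of the thymic stroma were examined in endothelial cells, which form the inner wall of blood vessels, sorted from mouse thymus. The members were 10 genes chosen by name: Kitl, Il7, Il15, Il33, Tslp, Flt3l, Csf1, Fgf7, Fgf10 and Fgf21. Every probe set whose only annotated symbol was one of these was taken, which gave 16 probe sets of 9 genes among 20380 such probe sets of 12393 genes on the array. Flt3l was named only on a probe set shared with Rpl13a, so no value was assigned to it. That shared probe set read 4.94 and 4.67 at day 4, against 4.78, 5.01 and 4.94 at day 0. The day 4 group consisted of 2 arrays of thymus taken 4 days after sublethal total body irradiation (550 cGy from a cesium source, with no hematopoietic rescue). It was set against 3 arrays of untreated thymus, called day 0. All mice were female C57BL/6J, 6 to 8 weeks old, and each array held RNA pooled from several mice. Magnetic depletion removed CD45-positive blood cells, and the remainder was sorted as CD45-negative, EpCAM-negative and VE-cadherin-positive. By the labels the untreated cells are thymic endothelial cells and those of day 4 CD45-negative stromal cells, but the sort given is the same.

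T cell development depends on factors that the thymic stroma supplies to blood-borne progenitors and to the epithelium. Kitl, or stem cell factor, and Flt3l act on progenitors through the receptors Kit and Flt3. The interleukins Il7, Il15 and Tslp signal through receptors that use JAK kinases and STAT factors, and Il7 from thymic epithelium is needed for survival of early thymocytes. Il33 is an alarmin kept in the nuclei of barrier and vessel cells and released on damage. Csf1 maintains macrophages, Fgf7 and Fgf10 are mesenchymal growth factors for epithelium, and Fgf21 is a hormone that needs the co-receptor Klb.

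The regions upstream of the members' starts are shown for Kitl and Csf1, whose probe sets gave unlike values, and for Il33, which has more than 1 annotated start. RefSeq promoter entries (GRCm38.p6, 250 bases before to 50 after a gene's start) were matched by symbol for 7 of the 10 members, Csf1, Fgf7, Fgf10, Fgf21, Flt3l, Il33 and Kitl, with 8 entries in all. Entries on 1 chromosome were left out, so a member not named here may still have an entry. Each sequence below runs 5′ to 3′ on the gene's strand, and capitals mark the GC box GGGCGG and the TATA box TATAAA, searched on both strands. These letters cannot overlap between the motifs, while neighbouring GC boxes can overlap each other.
Kitl, chr10:100015571-100015870, plus strand: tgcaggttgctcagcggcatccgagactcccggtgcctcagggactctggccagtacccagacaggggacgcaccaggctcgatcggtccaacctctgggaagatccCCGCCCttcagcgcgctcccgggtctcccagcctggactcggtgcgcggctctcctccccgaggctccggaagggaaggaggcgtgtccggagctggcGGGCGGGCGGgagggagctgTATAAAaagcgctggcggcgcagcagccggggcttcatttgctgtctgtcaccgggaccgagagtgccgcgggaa
Csf1, chr3:107760420-107760719, minus strand: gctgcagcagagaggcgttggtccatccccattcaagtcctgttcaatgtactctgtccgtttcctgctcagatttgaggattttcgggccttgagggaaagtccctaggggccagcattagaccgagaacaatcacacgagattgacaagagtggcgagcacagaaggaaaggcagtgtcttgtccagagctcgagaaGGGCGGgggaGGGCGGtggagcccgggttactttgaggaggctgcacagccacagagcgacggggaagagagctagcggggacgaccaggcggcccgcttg
Il33, first start, chr19:29924863-29925162, plus strand: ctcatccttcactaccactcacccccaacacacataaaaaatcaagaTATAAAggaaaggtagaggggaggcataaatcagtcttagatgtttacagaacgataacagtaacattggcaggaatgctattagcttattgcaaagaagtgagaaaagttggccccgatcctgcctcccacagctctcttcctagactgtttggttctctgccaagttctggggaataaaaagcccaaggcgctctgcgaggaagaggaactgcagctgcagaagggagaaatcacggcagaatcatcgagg
Il33, second start, chr19:29945540-29945839, plus strand: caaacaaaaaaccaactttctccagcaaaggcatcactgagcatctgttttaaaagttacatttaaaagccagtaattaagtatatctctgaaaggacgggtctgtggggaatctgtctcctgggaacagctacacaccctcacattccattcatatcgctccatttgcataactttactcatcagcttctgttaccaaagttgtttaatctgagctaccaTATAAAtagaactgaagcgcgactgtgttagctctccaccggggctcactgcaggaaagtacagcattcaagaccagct
The Kitl window held 3 GC boxes and 1 TATA box at base -25 from the annotated start. The Csf1 window held 2 GC boxes and 0 TATA boxes. Both Il33 windows held 0 GC boxes and 1 TATA box, at base -203 in the first and at base -29 in the second. Of 32851 RefSeq windows of this length, 35.7% held a GC box and 13.6% a TATA box. A match is only a run of letters, and the arrays measured no binding or start site.

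Values are log2 values made with GCRMA, and levels of different probe sets cannot be set against each other. A probe set was tested if it lay above a log2 value of 4 on at least 2 arrays, which 15065 of all probe sets and 13 of the 16 member probe sets did. Of the members, 7 genes had a tested probe set. Those 13 include Fgf21, which passed only through day 0 arrays. Changes are day 4 minus day 0, and called means an adjusted p under 0.05 in limma (lmFit and eBayes, Benjamini-Hochberg over all 15065). Of the tested probe sets, 210 were called, or 1.39%. Higher ones made up 0.717% and lower ones 0.677%.

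None of the tested cytokine and growth factor probe sets passed the limma threshold: 0 of 13 were called. An unadjusted limma p under 0.05 was found for 4 of the 13, against 19.4% of all tested probe sets. These 4 were Kitl 1448117_at and 1415854_at, both with higher values at day 4, and Il15 1418219_at and Csf1 1425155_x_at, both with lower values at day 4. They were also the 4 with no overlap between day 4 and day 0 arrays, beside 39.6% among all that were tested. The median change over the 13 was 0.02, beside -0.0044 over all tested probe sets, and 7 values lay above 0 and 6 below. The median size of the change, sign left out, was 0.32 over the 13 and 0.16 over all tested. With an intensity trend and robust fitting, limma called 1 of the 13, Kitl 1448117_at (adjusted p = 0.0488), and 309 of all 15065 tested probe sets, or 2.05%.

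**Figure D1:**
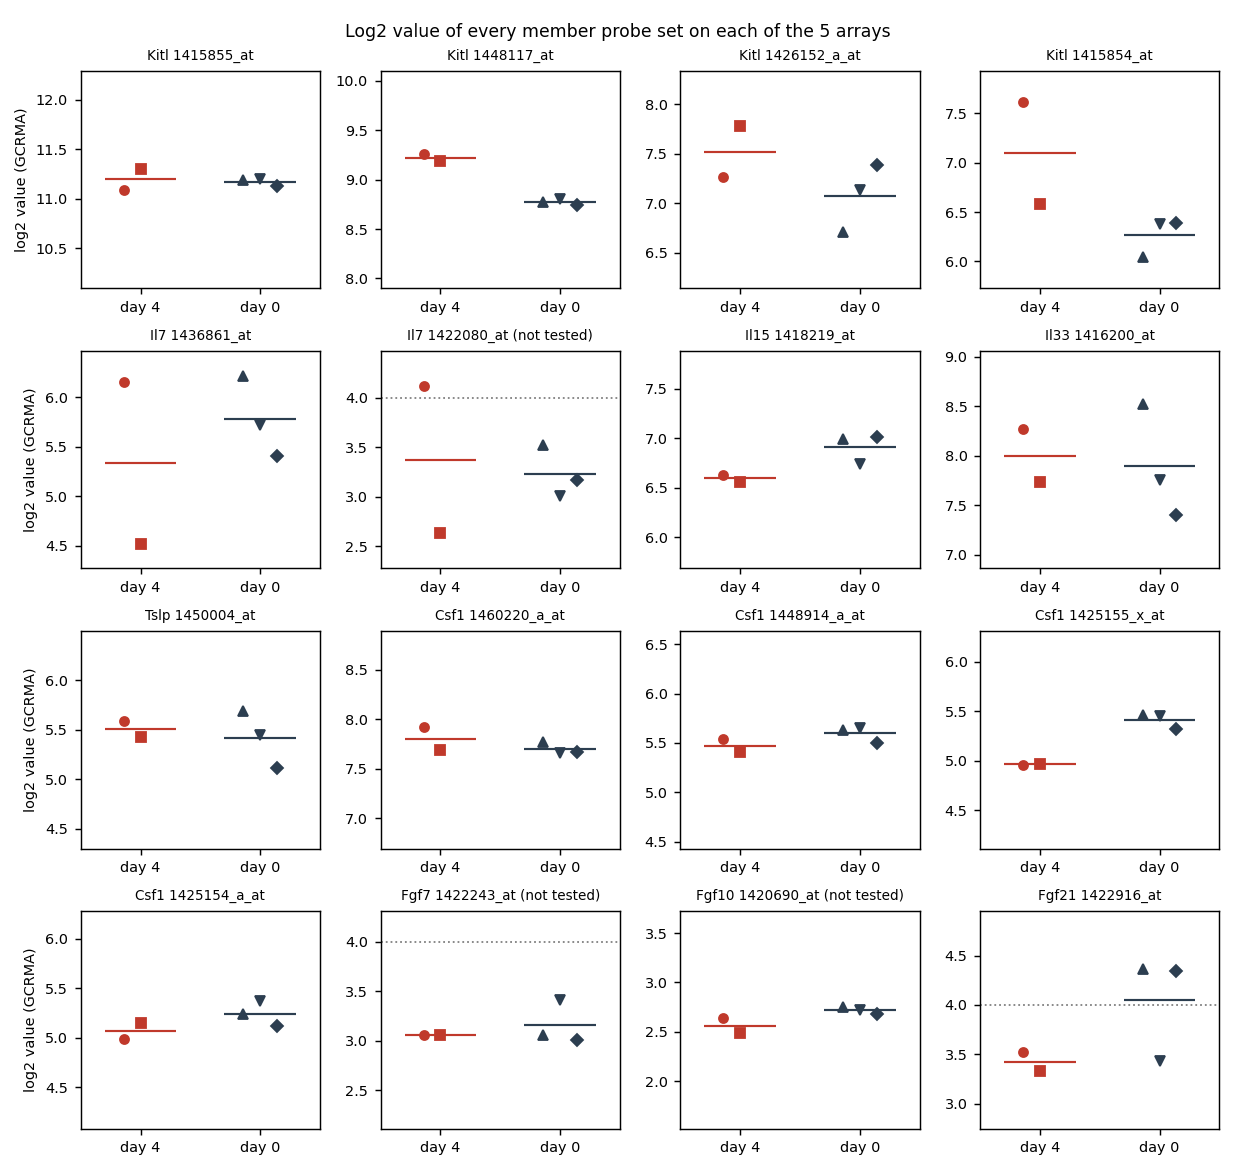
Log2 values of the 16 member probe sets, one panel each, with day 4 arrays in red on the left and day 0 arrays in dark blue on the right. Symbols stand for arrays (circle and square for day 4 replicates 1 and 2; up triangle, down triangle and diamond for day 0 replicates 1, 2 and 3), horizontal lines for group means, and the dotted line for the level filter at 4. Every panel spans the same height on the log2 scale; the groups are apart for Kitl 1448117_at and Csf1 1425155_x_at, while the Il7 day 4 arrays lie far from each other.

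Kitl, the ligand of the receptor Kit, was read by 4 probe sets, of which 3 were annotated to the same sequence record and 1426152_a_at to another. The suffix _a_at marks probes shared by alternative transcripts of a gene. Probe set 1415855_at read 11.09 and 11.30 at day 4, against 11.19, 11.20 and 11.13 at day 0. Its groups overlapped, with a mean of 11.20 ± 0.15 (SD, n = 2) for day 4 beside one of 11.17 ± 0.040 (SD, n = 3) for day 0, and the change of 0.02 had a 95% interval from -0.23 to 0.28 (limma adjusted p = 0.924). Probe set 1448117_at read 9.26 and 9.18 at day 4, against 8.78, 8.81 and 8.74 at day 0. Here both day 4 arrays lay above every day 0 array by more than the spread within either group. Its change was 0.44 ± 0.091 (SE), or 1.36-fold, with an interval from 0.22 to 0.66 and a limma adjusted p of 0.0831.

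The other Kitl probe sets varied more between arrays of one group. Probe set 1415854_at read 7.61 and 6.58 at day 4, against 6.05, 6.38 and 6.39 at day 0. Day 4 replicate 1 stood 1.03 above replicate 2, and the lower day 4 array was close to the upper day 0 arrays. The change was 0.82 ± 0.30 (SE; limma adjusted p = 0.220), 0.31 without day 4 replicate 1 and 1.34 without day 4 replicate 2. Probe set 1426152_a_at read 7.26 and 7.78 at day 4, against 6.71, 7.13 and 7.39 at day 0. Its groups overlapped, and the change of 0.44 had an interval from -0.15 to 1.03 (limma adjusted p = 0.365). It was 0.19 without day 4 replicate 2 and 0.70 without day 4 replicate 1.

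Whether the Kitl probe sets changed unequally was examined with the difference, within each array, from 1415855_at. The day 4 arrays gave log2 differences of -1.83 and -2.12 for 1448117_at, and the day 0 arrays gave -2.41, -2.39 and -2.38. The day 4 differences lay above all day 0 ones, by 0.42 on average, with a two-sided exact permutation p of 0.2, the smallest that 10 splits of the arrays allow (0.3 after adjustment over 6 such differences of Kitl and Csf1). For 1415854_at the mean difference was -4.10 at day 4 and -4.90 at day 0 (exact permutation p = 0.2), and for 1426152_a_at it was -3.68 at day 4 and -4.10 at day 0 (exact permutation p = 0.4). This test cannot reach 0.05 with these arrays. A limma fit of 4928 such differences over all genes, added after the values were seen, called 1 of them, 0.0203%, and none of Kitl. Its 95% interval for 1448117_at ran from 0.13 to 0.72 (adjusted p = 0.350).

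Signs of RNA quality also differed between the groups. The day 4 arrays had a 3′ minus 5′ log2 signal of 1.35 and 1.39 in the actin control probe sets, while the day 0 arrays had 1.59, 1.65 and 1.43. In the Gapdh control the day 4 arrays had 0.82 and 0.83, while the day 0 arrays had 0.96, 0.90 and 0.93. Both were lower on every day 4 array, and the positions of the Kitl probe sets along the transcript were not used here, so the part of RNA quality in their unlike values was not tested.

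**Figure D2:**
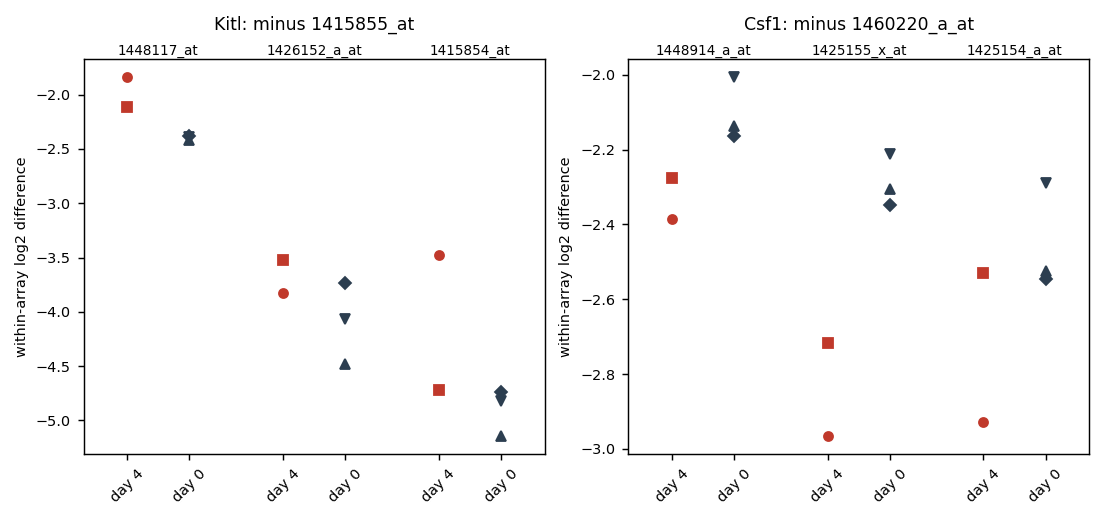
Within-array log2 difference of each other Kitl probe set from 1415855_at (left) and of each other Csf1 probe set from 1460220_a_at (right), for day 4 arrays (red) and day 0 arrays (dark blue), with the array symbols circle and square for day 4 replicates 1 and 2 and up triangle, down triangle and diamond for day 0 replicates 1, 2 and 3. Kitl 1448117_at lies at -1.83 and -2.12 at day 4, above the day 0 arrays at -2.41 to -2.38.

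Csf1, the growth factor of macrophages, was likewise read by 4 probe sets, from 2 sequence records. Probe set 1460220_a_at read 7.92 and 7.68 at day 4, against 7.77, 7.66 and 7.67 at day 0, with overlapping groups and a change of 0.10 (limma adjusted p = 0.641). Probe set 1425155_x_at, whose suffix marks probes that may also bind other sequences, read 4.96 and 4.97 at day 4, against 5.46, 5.45 and 5.32 at day 0. Its day 4 arrays lay below all day 0 arrays, and the change was -0.45 ± 0.097 (SE) with an interval from -0.68 to -0.21 (limma adjusted p = 0.0909). Probe set 1425154_a_at, from the same record, read 4.99 and 5.15 at day 4, against 5.24, 5.37 and 5.12 at day 0. Those groups overlapped and the change was -0.17 (limma adjusted p = 0.452).

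The last Csf1 probe set, 1448914_a_at, read 5.54 and 5.41 at day 4, against 5.63, 5.66 and 5.50 at day 0, a change of -0.13 with overlapping groups (limma adjusted p = 0.534). Thus 1 of the 4 Csf1 values lay above 0 and 3 below. Relative to 1460220_a_at on the same array, 1425155_x_at gave a log2 difference of -2.97 and -2.72 at day 4, against -2.30, -2.21 and -2.35 at day 0. The groups of this difference did not overlap, and the mean shift of -0.55 had a two-sided exact permutation p of 0.2. In the added limma fit of differences its interval ran from -0.85 to -0.26 (adjusted p = 0.343). The list genes nearest in pattern, by a distance explained with Il7, were Stat5b, Tek and Pdgfra for 1425155_x_at (0.095 to 0.11, candidate median 0.35). They were Cd4, Fgf1 and Rgs5 for 1425154_a_at (0.061 to 0.086, median 0.28). For 1460220_a_at they were Col3a1, Flt1 and Spred1 (0.065 to 0.078, median 0.24). For 1448914_a_at they were Myh11, Des and Socs3 (0.065 to 0.069, median 0.25). Values of 1460220_a_at and 1448914_a_at spanned only 0.26 and 0.25 over the arrays, so probe sets that varied little lie near them.

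Il7 is produced mainly by thymic epithelium and was read by 2 probe sets. Probe set 1436861_at read 6.16 and 4.52 at day 4, against 6.22, 5.72 and 5.41 at day 0. Day 4 replicate 2 was the lowest of the 5 arrays, while day 4 replicate 1 lay within the day 0 range. Day 4 averaged 5.34 ± 1.15 (SD, n = 2), whereas day 0 averaged 5.78 ± 0.41 (SD, n = 3). The change of -0.44 had a wide interval, from -1.63 to 0.74 (limma adjusted p = 0.647). It was -1.26 without day 4 replicate 1 and 0.37 without day 4 replicate 2. Probe set 1422080_at lay above 4 on 1 array only and was not tested. It read 4.12 and 2.63 at day 4, against 3.52, 3.01 and 3.16 at day 0. Day 4 replicate 2 was again the lowest array, while day 4 replicate 1 was the highest for this probe set only.

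The gap between the day 4 arrays was 1.63 for Il7 1436861_at and 1.49 for Il7 1422080_at. A gap at least as large as these, in either direction, was found for 44 and 61 of the 15065 tested probe sets, or 0.292% and 0.405%. Genes with a like pattern over the 5 arrays were sought among the 172 tested probe sets of the pathway and marker lists. Likeness was the root mean square difference of values centred on their mean over the arrays. A gene named as nearest stands for its nearest probe set, which can differ between members. Other tested probe sets were not searched. Of the marker lists, only the thymic epithelial and thymocyte ones held probe sets higher on day 4 replicate 1 by over 1. Few candidates outside the epithelial list could thus match the gap of Il7. The 3 nearest genes to Il7 1436861_at were all on the list of thymic epithelial markers. They were Pax1, a transcription factor of thymic epithelium, at 0.15, Epcam, the surface marker that the sort excluded, at 0.18, and Krt18, a keratin, at 0.20, beside a median of 0.69 over the candidates.

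Epcam read 7.17 and 5.67 at day 4, against 7.27, 6.59 and 6.83 at day 0. Krt18 read 9.80 and 8.41 at day 4, against 9.75, 8.99 and 9.07 at day 0. Both were thus lowest on day 4 replicate 2, as Il7 was. Of the 17 tested probe sets of the epithelial list, 12 were higher on day 4 replicate 1 than on replicate 2, 9 of them by over 1, while 45.9% of all tested probe sets were higher and 0.996% were higher by over 1. Summed over the list's 12 tested genes, the linear signal had a log2 of 11.78 and 10.46 on the day 4 arrays, and of 12.36, 11.60 and 11.56 on the day 0 arrays. None of its 17 probe sets was called (0 by limma), and the list median was -0.71. At an unadjusted p under 0.05, 7 were lower and 0 higher, beside 19.4% of all tested probe sets in either direction. Of the 7, Krt14 1460347_at, whose change is the list median, passed the level filter only through day 0 arrays. The largest changes were those of Trp63, an epithelial transcription factor (-1.41, limma adjusted p = 0.160), and Ccl25, a chemokine for progenitors (-1.27, limma adjusted p = 0.260). In sorted pools, fewer cells of a type and less RNA per cell cannot be told apart, and the part of epithelial RNA in the Il7 values was not tested.

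**Figure D3:**
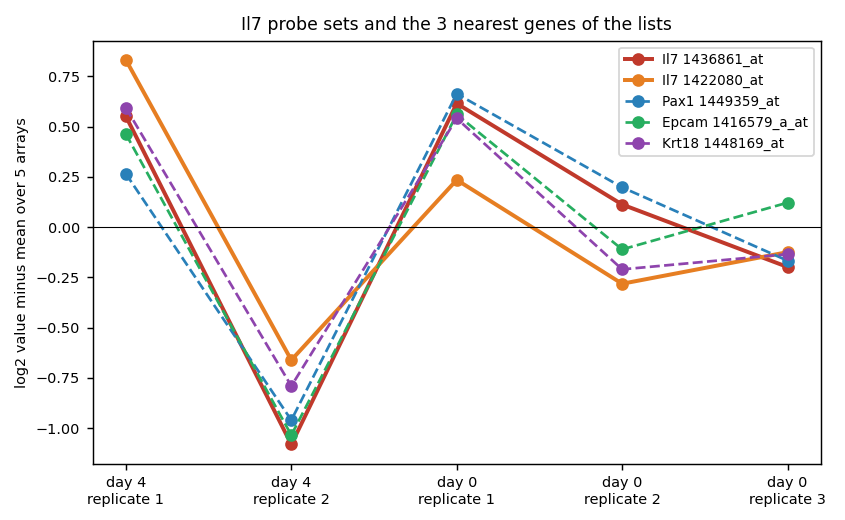
Log2 values minus their mean over the 5 arrays for both Il7 probe sets (solid) and the 3 nearest list genes Pax1, Epcam and Krt18 (dashed), with day 4 arrays on the left and day 0 arrays on the right. All 5 lines are lowest on day 4 replicate 2; the lines only join values of 1 probe set and imply no order of arrays.

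Il15, which supports natural killer and unconventional T cells, had 1 probe set, 1418219_at. It read 6.63 and 6.56 at day 4, against 7.00, 6.74 and 7.01 at day 0. The groups did not overlap, with a day 4 mean of 6.59 ± 0.053 (SD, n = 2) beside a day 0 mean of 6.91 ± 0.16 (SD, n = 3). The change of -0.32 ± 0.12 (SE) had an interval from -0.62 to -0.03 and did not pass (limma adjusted p = 0.226). The list genes nearest to it were Cldn3 1451701_x_at, an epithelial claudin read near the level filter, at 0.098, and Cdh5, which encodes VE-cadherin, at 0.099. Ptpn6, a phosphatase of blood cells, followed at 0.11, against a candidate median of 0.32.

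Il33 1416200_at read 8.27 and 7.74 at day 4, against 8.52, 7.75 and 7.40 at day 0. Both day 4 arrays lay within the day 0 range. The day 4 mean of 8.00 ± 0.38 (SD, n = 2) stood beside a day 0 mean of 7.89 ± 0.57 (SD, n = 3). The interval of the change ran from -0.72 to 0.94, so changes in either direction within it were not excluded by these arrays (change 0.11, limma adjusted p = 0.885). Nearest to it on the lists were Krt5, a keratin of medullary epithelium, at 0.22, and the fibroblast list genes Fbln1 at 0.23 and Gsn at 0.25, against a candidate median of 0.47. Tslp 1450004_at, an interleukin 7-like cytokine, read 5.58 and 5.42 at day 4, against 5.69, 5.45 and 5.11 at day 0. These groups overlapped and the change was 0.09 with an interval from -0.35 to 0.53 (limma adjusted p = 0.820). Reln, Jak1 and Fbln1 were the list genes nearest to Tslp, at 0.091, 0.11 and 0.11.

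Fibroblast growth factors lay near or under the level filter. Fgf7 1422243_at, a ligand of the epithelial form of Fgfr2, read 3.05 and 3.06 at day 4, against 3.05, 3.41 and 3.01 at day 0. Fgf10 1420690_at, a second ligand of that receptor form, read 2.64 and 2.49 at day 4, against 2.76, 2.72 and 2.68 at day 0. Both stayed under 4 on all 5 arrays and were not tested. In a limma fit without the level filter their changes were -0.10 (adjusted p = 0.776) and -0.15 (adjusted p = 0.515), and the day 4 arrays lay under all day 0 arrays for Fgf10 only. These values do not show that the genes were silent, because no detection calls were given.

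Fgf21 1422916_at read 3.52 and 3.33 at day 4, against 4.37, 3.44 and 4.34 at day 0. Day 0 replicates 1 and 3 lay above the filter and the other arrays under it, so the size of its change, -0.62 with an interval from -1.34 to 0.10, rests on background values (limma adjusted p = 0.308). Its nearest list genes were Cldn3 1434651_a_at at 0.26, Krt14, a keratin, at 0.29 and Satb1 1436182_at, a chromatin organizer of thymocytes, at 0.30. Of the mesenchymal marker lists, all 12 pericyte and smooth muscle genes and all 13 fibroblast genes had a probe set on the array. A tested one was present for 11 and 12 of them. The summed fibroblast signal, on the log2 scale, reached 13.21 and 12.73 at day 4, against 13.08, 12.98 and 12.78 at day 0. These sums overlapped between the groups, and 0 of the 20 fibroblast probe sets were called by limma. At an unadjusted p under 0.05, 4 were higher and 1 lower, beside 19.4% of all tested probe sets. Mfap5, a matrix protein, differed by 0.73 (limma adjusted p = 0.0722) and Pdgfra, a growth factor receptor, by -0.54 (limma adjusted p = 0.150).

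**Figure D4:**
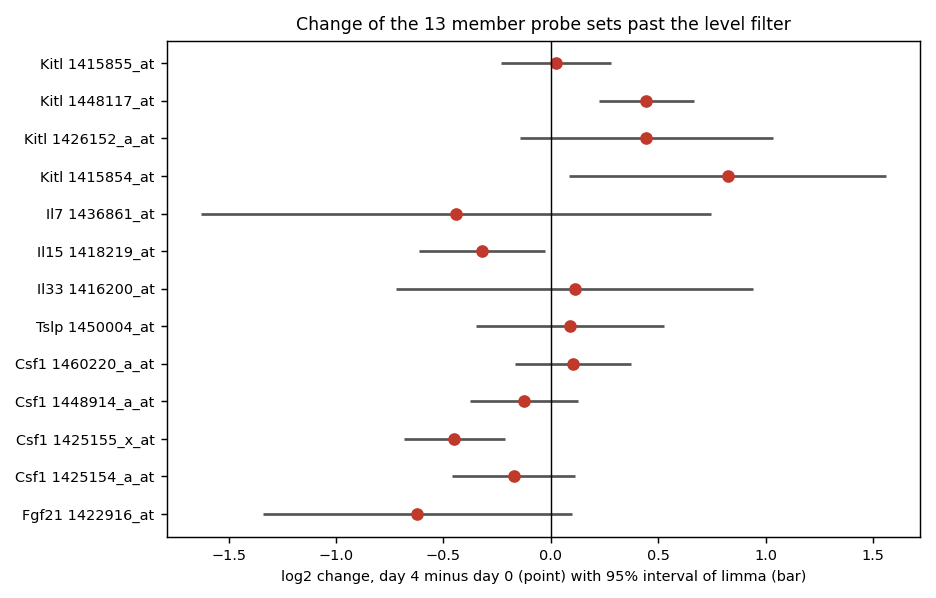
Log2 change, day 4 minus day 0, of the 13 tested member probe sets (points) with the 95% interval of limma (bars); the vertical line marks 0. The intervals of 4 probe sets do not cover 0, those of Kitl 1448117_at and 1415854_at above it and those of Il15 and Csf1 1425155_x_at below it, and 0 of the 13 passed after adjustment.

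Receptors of the members were read in the same fit. Of 15 receptor genes, 13 had a probe set and 9 had a tested one, with 13 tested probe sets in all. None was called (0 by limma). At an unadjusted p under 0.05, 8 had higher and 0 lower values, beside 19.4% of all tested probe sets in either direction. Of the 8, Fgfr3 1425796_a_at passed the level filter only through its day 4 arrays. Fgfr4 1427846_x_at, not among the 8, passed only through day 0 arrays. The median change was 0.34 beside -0.0044 over all tested. That median was 0.59 with the level filter at 6 and 0.21 with no level filter. Il2rg and Il1rl1 had no probe set with 1 symbol, and those of Il7r, Il2rb, Flt3 and Klb stayed out of the tests. Kit 1452514_a_at, the receptor of Kitl, read 7.93 and 7.61 at day 4, against 6.99, 7.18 and 6.81 at day 0. Its groups lay apart and the change was 0.78 ± 0.15 (SE; limma adjusted p = 0.0795). The other Kit probe set, 1415900_a_at, lay under the level filter on every array, with overlapping groups, and was not tested.

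The largest receptor change was that of Csf1r, the receptor of Csf1 and a marker of macrophages. Probe set 1419872_at of Csf1r read 8.81 and 8.97 at day 4, against 8.11, 6.91 and 7.46 at day 0, a change of 1.40 (limma adjusted p = 0.108). A second, 1419873_s_at, gave 1.18 (limma adjusted p = 0.114), and both were called without day 0 replicate 1, at 1.71 (limma adjusted p = 0.0385) and 1.47 (limma adjusted p = 0.0173). The third Csf1r probe set, 1423593_a_at, read 5.50 and 5.74 at day 4, against 5.65, 4.75 and 5.07 at day 0, with overlapping groups and a change of 0.46 (limma adjusted p = 0.379). Csf1r is on the myeloid list too, of whose 18 tested probe sets 3 rose and 2 fell by the limma threshold, at a median of 1.37; for 3 of these 5, one whole group lay under the filter. The summed myeloid signal over 14 genes, on the log2 scale, reached 12.41 and 12.05 at day 4, against 11.29, 10.22 and 10.58 at day 0. It was higher on both day 4 arrays, and its part in the Csf1r values was not tested. Cd163, a scavenger receptor of macrophages, changed by 2.89 (limma adjusted p = 0.0170) and S100a8, a neutrophil protein, by -2.93 (limma adjusted p = 0.0104). The sizes of both changes rest on background values, since Cd163 lay under the filter on all day 0 arrays and S100a8 on both day 4 arrays.

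Other ligands of these receptors were mostly low. Of 15 genes, 3 had tested probe sets, 5 in all, and 0 were called by limma (0 also at an unadjusted p under 0.05). The largest was Fgf22 1460296_a_at, at 0.31 (limma adjusted p = 0.285), and Il34, the other ligand of Csf1r, differed by 0.12 (limma adjusted p = 0.711). Of 32 tested probe sets of JAK-STAT signalling and its feedback, from 19 of 20 genes, 0 were called by limma. An unadjusted p under 0.05 was found for 9 with higher and 3 with lower values, beside 19.4% of all tested probe sets. The list median was 0.16, or 0.093 without day 4 replicate 1. Jak2 1421065_at, a kinase used by many cytokine receptors, read 8.49 and 7.80 at day 4, against 7.29, 7.38 and 7.26 at day 0. Those arrays did not overlap, the change was 0.84 (limma adjusted p = 0.114), and it was called without day 4 replicate 2 (1.18, limma adjusted p = 0.0367).

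Feedback genes of the ERK pathway, which FGF receptors, Kit and Csf1r activate, had 10 tested probe sets from 7 of 12 genes. Again 0 were called by limma, and the median was 0.27. At an unadjusted p under 0.05, 2 of the 10 had higher and 0 lower values, near the share of 19.4% over all tested probe sets. Spred1, an inhibitor of ERK signalling, had the largest change at 0.39 (limma adjusted p = 0.295). The list genes nearest in pattern to Kitl 1415854_at were Jak2 at 0.16, Kit at 0.28 and Fgfr1 at 0.29, against a candidate median of 0.58. To Kitl 1448117_at they were Notch3, a receptor of mural cells, at 0.046, Il15ra at 0.061 and the kinase gene Pim1 at 0.067, against a median of 0.31. Kitl 1426152_a_at was nearest to Spry1 at 0.11, Spred1 at 0.11 and Jak1 at 0.14, against 0.42. Nearest to Kitl 1415855_at were Fgf22 1450205_at, Esam and Tagln at 0.054 to 0.060, against 0.23. Values of Kitl 1415855_at spanned only 0.21 over the arrays, so probe sets that varied little lie near it by this distance. This Fgf22 probe set changed by -0.0066. Likeness over 5 arrays describes these arrays only.

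**Figure D5:**
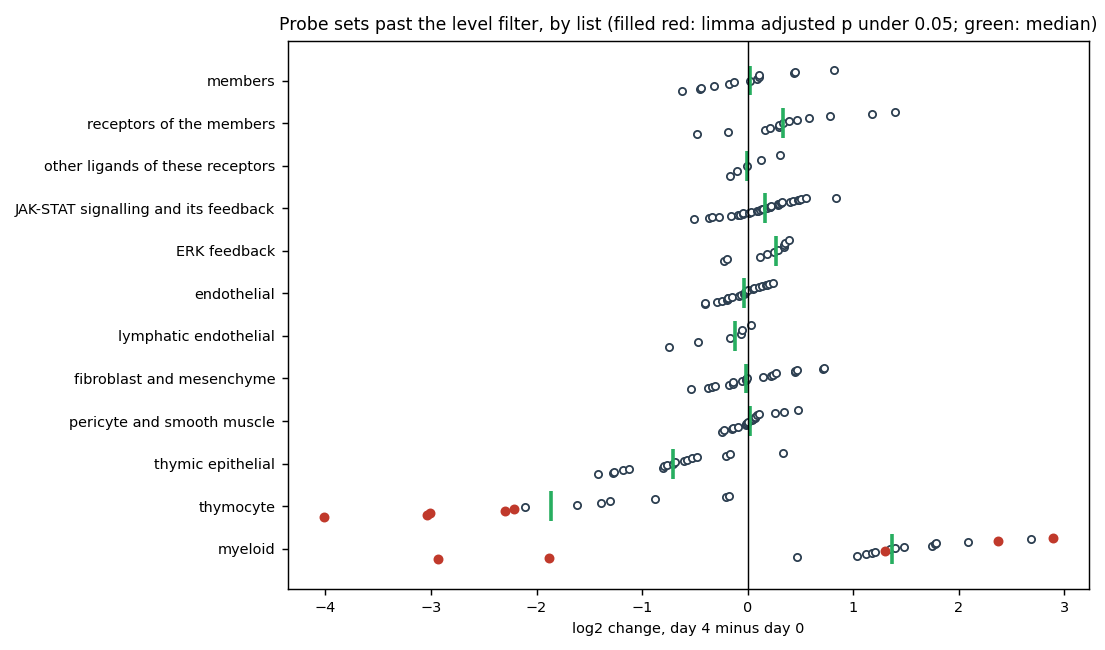
Log2 change, day 4 minus day 0, of each tested probe set of the members, the 4 pathway lists and the 7 marker lists; filled red points passed the limma threshold, open points did not, and green bars are list medians. Members and pathway lists hold 0 called probe sets, while the thymocyte list holds 5 lower ones and the myeloid list 3 higher and 2 lower ones.

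As to the sort, all 16 endothelial marker genes had a tested probe set, 0 of their 24 probe sets were called by limma (0 higher and 1 lower at an unadjusted p under 0.05), and the list median was -0.03. Egfl7 1421335_a_at (-0.41, limma adjusted p = 0.347) and Tek (-0.40, limma adjusted p = 0.136) had the largest changes among them. The other Egfl7 probe sets gave -0.24, -0.18 and -0.08, and the groups overlapped for every Egfl7 probe set. Cdh5 1433956_at read 11.38 and 11.40 at day 4, against 11.57, 11.51 and 11.64 at day 0. Ptprc, which encodes the excluded CD45, had values between 6.08 and 6.86 over all arrays. Of 12 tested thymocyte probe sets, 5 fell by the limma threshold and 0 rose, and for 2 of the 5 both day 4 arrays lay under the filter. Satb1 1416008_at changed by -3.04 (limma adjusted p = 0.0159). It read 4.30 and 3.98 at day 4, near the filter, so the size of that change rests in part on background values. Satb1 1416007_at gave -3.01 (limma adjusted p = 0.0362). Satb1 1436182_at had overlapping groups and gave -0.88 (limma adjusted p = 0.261). Rag1, a recombinase of developing lymphocytes, read 3.06 and 3.14 at day 4, under the filter, so the size of its change of -4.01 rests on background values there (limma adjusted p = 0.00771). Of the lymphatic and pericyte lists 0 probe sets were called by limma (0 and 2 at an unadjusted p under 0.05); Lyve1 (-0.74), Pdpn (-0.17), Notch3 (0.48) and Abcc9 (0.34) had their largest changes. Array medians lay between 5.25 and 5.29, and between 64.8% and 65.4% of probe sets lay above 4.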

How the data were processed

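Each Affymetrix array was deposited as a column of log2 values, 1 for each probe set. These log2 values were computed by the authors with the GCRMA method, as the submitters' processing notes name it. Neither the version of GCRMA nor which arrays were normalized as a set is given in the sources used here. Such normalization hides changes shared by most genes. The table held 22690 probe sets, 64 of them controls, and gave no detection calls. Symbols came from the platform annotation, and all 16 member probe sets matched the RefSeq gene table by Entrez identifier. limma 3.58.1 in R 4.3.3 compared the groups, two-sided, with no covariate, on 15065 probe sets above 4 on at least 2 of 5 arrays, with 3 residual and 3.085 prior degrees of freedom; it was also tested on simulated data. The number of arrays limits the precision, and since each array is a pool of mice, p-values measure the spread between pools, which may be partly technical. Figures used matplotlib 3.10.9 in Python 3.11.15. The members and lists were chosen with earlier results of these data known. Named were every member probe set, called probe sets of the pathway lists and the largest uncalled one of each, 2 genes per marker list, the sort markers and the 3 list genes nearest in pattern. Alternatives were quantile normalization, median centring, no level filter or one at 6, an intensity trend with robust fitting, weights for single arrays, a block by replicate number, 1 probe set per gene and leaving out each array.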

Additional observations from a re-analysis of the deposited data

How the results depend on the processing

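Over all probe sets, 210 calls became 53 with array weights, 401 with the replicate block, 309 with an intensity trend and robust fitting and between 15 and 165 without single arrays (15 without day 4 replicate 1, 32 without day 0 replicate 3). Member calls numbered 1 with that trend and robust fitting (Kitl 1448117_at) and 0 under the other alternatives. Pathway list calls numbered 1 without the level filter (Fgfr1 1425911_a_at, under 4 on all arrays) and 0 to 2 without single arrays. Of 156 recomputed member changes, 144 kept their sign and their side of the threshold, 1 passed and 11 changed sign, all of these among changes that had not passed. Kitl 1415855_at was -0.0018 after median centring, -5e-05 with the replicate block and between -0.081 and 0.13 without single arrays. Il33 was -0.13 and Tslp -0.065 with the replicate block, and the same without day 0 replicate 3. That array has no day 4 partner, so in the block it adds nothing to a change. Member changes tested in both alternatives were thus the same, and the 2 are not separate checks. The block also leaves fewer residual degrees of freedom. Without single arrays Il33 ranged from -0.16 to 0.42, Tslp from -0.065 to 0.22, Il7 1436861_at from -1.26 to 0.37 and Csf1 1460220_a_at from -0.015 to 0.22. The member median ranged from -0.10 to 0.17 without single arrays and was -0.13 with the block. The differences between Kitl probe sets kept their sign under all alternatives run, between 0.18 and 1.42 for 1415854_at, 0.28 and 0.56 for 1448117_at and 0.23 and 0.60 for 1426152_a_at. Leaving out a day 4 array leaves 1, which is then assumed to vary like the day 0 arrays. The labels tie replicate numbers to no shared litter or day. Deviations from the group means correlated at 0.20 for replicates 1 and 0.084 for replicates 2. With 2 day 4 arrays the day 4 deviations are exact opposites, so these correlations cannot decide whether the arrays were paired. The filter at 6 left no tested probe set among the other ligands. Apart from the arrays that the block uses, the cause of these shifts was not tested.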
